A study of Mus musculus with 6 samples.

Results

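The genes described here are 9 members of the NRF2 antioxidant pathway: Nfe2l2, Keap1, Nqo1, Gclc, Gclm, Txnrd1, Srxn1, Hmox1 and Slc7a11. They were taken by symbol from a deposited table of 11417 genes, and all 9 were listed and passed the filter on low values, among 10759 genes that did. The table holds RPKM, a read number divided by gene length in kilobases and by library size, for poly(A) RNA of 3 mouse mammary epithelial lines with 2 libraries each. BC44 was untreated and grown on plastic in RPMI1640 with 10% serum and 5 µg/ml insulin, and untreated HC11 grew on plastic in the same medium with 10 ng/ml added EGF. C57MG, also untreated and on plastic, received DMEM containing insulin at 10 µg/ml beside 10% serum, and all cells were harvested 2 days after plating. As background, HC11 and BC44 are clonal lines obtained from COMMA-D mammary cells, and C57MG came from the mammary gland of a C57BL/6 mouse. Each line had its own medium, so line and medium cannot be told apart. The labels do not say whether the libraries of a line came from separate cultures, so the p-values measure only the spread between these libraries, which may be technical.

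Estimated depth, from the step that 1 read makes in low values, was 14210000 to 18410000 reads per library. Of 12 epithelial markers 11 were listed, and they summed to 4852 and 5063 RPKM in BC44, 2269 and 3155 in HC11, but only 65.7 and 137 in C57MG, where Cldn3 was at 0 in both libraries and Epcam, Cdh1, Cldn4 and Esrp1 were at 0 in replicate 2. Cldn3 and Krt18 were also at 0 in both BC44 libraries. Krt5 and Krt14 made up most of each sum. Krt5 was at 2012 and 1828 RPKM in BC44 and 1000 and 534 in HC11, and Krt14 at 2716 and 2736 and at 1409 and 1073. Of the 10 markers tested with limma below, 2 passed as higher in BC44 and 5 as higher in HC11. Over all genes these shares were 24.7% and 23%. Krt8 was at 0.038 and 0.064 RPKM in BC44 and 144 and 148 in HC11. The 10 mesenchymal markers, which include Vim and Col1a1, summed to 6892 and 7155 RPKM in C57MG and to 69.2 to 158 in the other 4 libraries. Of 5 leukocyte, 4 endothelial and 4 adipocyte markers 2, 2 and 1 were listed and summed to at most 21.9, 2.38 and 8.77 RPKM in a library. Most of the first was Lyz2 in C57MG (18.6 and 17.2 RPKM). The label mammary epithelial was therefore not matched by most epithelial markers in C57MG, although Krt14 was expressed there. The part of this difference in the results below was not tested. A low signal of another line was also present in some libraries. In C57MG replicate 1 the 11 genes private to BC44 had a median of 0.729% of their level in BC44 itself, and in replicate 2 a median of 0. In BC44 replicates 1 and 2 the 73 and 72 genes private to C57MG had medians of 0.666% and 2.02% of what C57MG expressed. Of these genes 64.4% and 97.2% lay within 2-fold of the median, so the share for a single gene is less sure in replicate 1.

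NRF2, encoded by Nfe2l2, is a transcription factor that switches on genes for detoxification, glutathione and thioredoxin metabolism. In resting cells KEAP1 binds NRF2 and brings it to a ubiquitin ligase that marks it for degradation. When electrophiles or oxidants modify KEAP1, NRF2 escapes, enters the nucleus, pairs with a small MAF protein and binds antioxidant response elements in DNA. BACH1 competes with it at some of these elements, most clearly at Hmox1. Because NRF2 is controlled mainly as a protein, its mRNA level is not a measure of its activity.

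The promoter windows show whether the letters of such an element lie close to the start of the genes whose levels are compared below. RefSeq windows (GRCm38.p6) from 250 bases before to 50 bases after the start were held for 7 of the 9 members, in 9 windows. The submitters' processing notes name mm9, so these coordinates are RefSeq's own and were used only for the sequences. The spellings searched, on both strands, were TGACNNNGC, the core of the element, and TGANTCAGC, a form of the site bound by MAF partners. They overlap where N in the second is C. Of all 32851 mouse windows 12.4% held TGACNNNGC, 1.19% held TGANTCAGC and 13.0% held at least 1 of these spellings. Matches lay in the windows of 4 members, Nfe2l2, Srxn1, Gclm and Txnrd1. This counts genes, whereas the shares above count windows, and Txnrd1 had a match in 1 of its 3 windows. The 3 target genes among them had their highest level in C57MG, but a relation between match and level was not tested. Their upstream matches are a description and not a shown binding site. They are printed with the motif in capitals, in the direction of the gene's own strand.
Srxn1, chr2:152105463-152105503, plus strand, first motif base 45 before the start: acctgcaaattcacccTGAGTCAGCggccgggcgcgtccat
Gclm, chr3:122245407-122245447, plus strand, first motif base 134 before the start, motif on the opposite strand: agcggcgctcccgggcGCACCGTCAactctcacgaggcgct
Txnrd1, chr10:82859098-82859138, plus strand, first motif base 92 before 1 of its 3 annotated starts, motif on the opposite strand: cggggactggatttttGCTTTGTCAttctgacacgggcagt
Srxn1 held a further match to TGACNNNGC on the opposite strand, beginning at base 29 of the transcript. In Nfe2l2 the match, shown because the gene encodes NRF2 itself, lay 240 bases before the start.
Nfe2l2, chr2:75704879-75704913, minus strand: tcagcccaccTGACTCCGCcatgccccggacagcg
No match lay in the windows of Nqo1, Slc7a11 or Keap1, which says only that these letters are absent from these windows. The 100 bases before the start of Nqo1 are shown because Nqo1 had the largest difference between lines. It was also the only 1 of the 7 members to hold TATAAA (capitals, first base 29 before the start, searched on both strands), which 13.6% of all windows hold.
Nqo1, chr8:107403206-107403305, minus strand: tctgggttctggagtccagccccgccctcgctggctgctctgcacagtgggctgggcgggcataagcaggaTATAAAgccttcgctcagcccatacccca
Gclc and Hmox1 had no window.

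The 9 genes did not move as a block between the lines. Nqo1 was high in BC44 and low in HC11 and C57MG. Gclc was high in BC44 and C57MG, Gclm and Srxn1 were high in C57MG alone, and Slc7a11 was low in C57MG alone. Txnrd1 and Nfe2l2 itself were also highest in C57MG, but differed by at most 1.94-fold and 1.64-fold between line means. In bulk RNA, fewer cells of a type and less RNA per cell cannot be told apart.

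**Figure D1:**
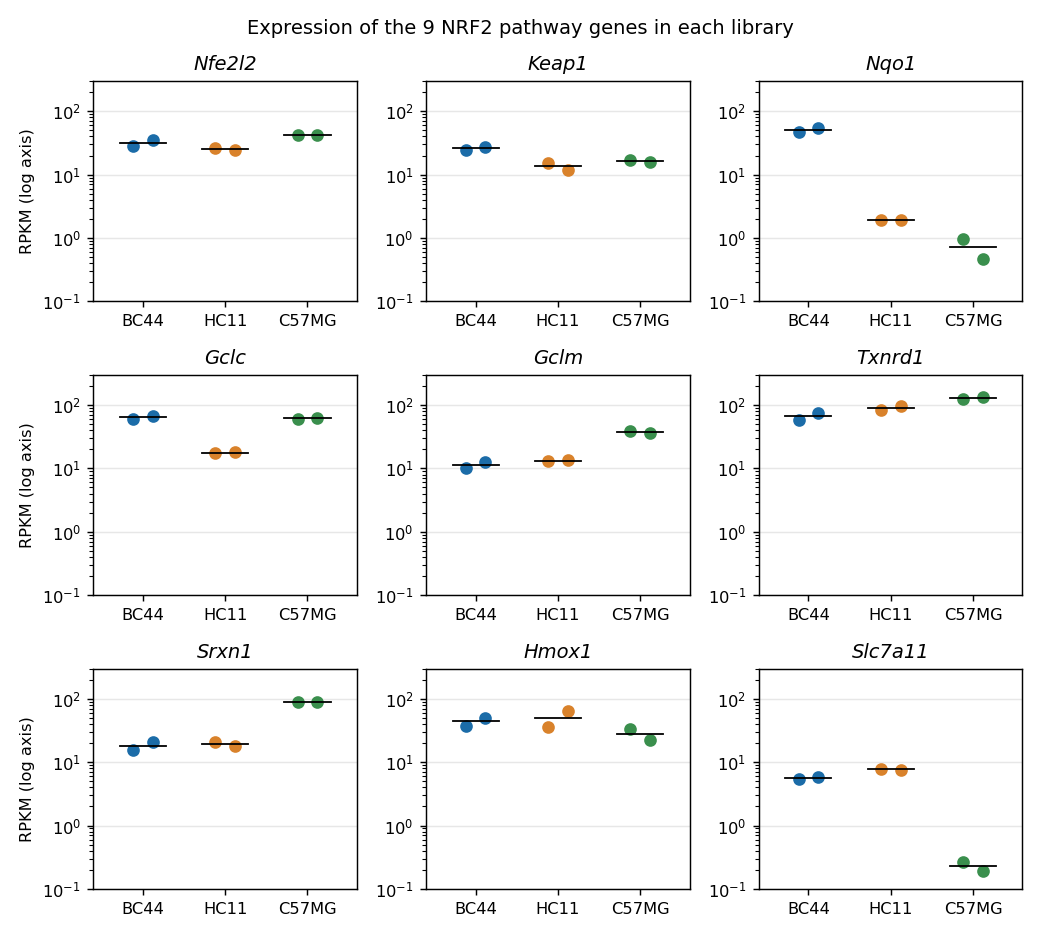
RPKM of each of the 9 genes in each library, on a log axis. Points are single libraries, replicate 1 to the left and replicate 2 to the right, and the horizontal bar is the mean of the 2 libraries of a line. Nqo1 stands at 47.8 and 54.5 RPKM in BC44 and under 2 RPKM in the other 4 libraries, and Slc7a11 under 0.3 RPKM in C57MG.

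Differences were tested as log2(RPKM + 1) with limma across all 10759 genes, with Benjamini-Hochberg adjusted p-values for each contrast and a threshold of 0.05. A log2 fold change on this scale understates the change of genes near or below 1 RPKM. The members were chosen with earlier results of these data known, so the share of members that passed is read only against the share of all genes.

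Between BC44 and HC11, 5 of the 9 genes passed, where 47.7% of all genes did. The 3 higher in BC44 and the 2 higher in HC11 compare with 24.7% and 23% of all genes. Between BC44 and C57MG 7 of 9 passed, where 71.7% of all genes did, with 3 higher in BC44 (37.5% of all genes) and 4 in C57MG (34.1%). Between HC11 and C57MG 8 of 9 passed, where 70.5% of all genes did, with 3 higher in HC11 (37.4% of all genes) and 5 in C57MG (33.2%). In the 3 contrasts 7, 8 and 9 of the 9 members had no overlap between libraries of different lines, beside 73%, 87.9% and 86.2% of all genes. As shares the members stood at 55.6%, 77.8% and 88.9%, near those of all genes in the first 2 contrasts and above the 70.5% in the third. With 9 members chosen with earlier results known, the third share was not tested. The number of calls is not read as a result about these genes. Differences that passed and were at least 2-fold on the tested scale were found for 2, 4 and 4 of the 9 members, where 12.5%, 29.8% and 27% of all genes had one. The median log2 fold change of the 9 was -0.08, 0.07 and -0.53, beside 0.02, 0.04 and 0.03 over all genes. What follows is therefore gene by gene.

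**Figure D2:**
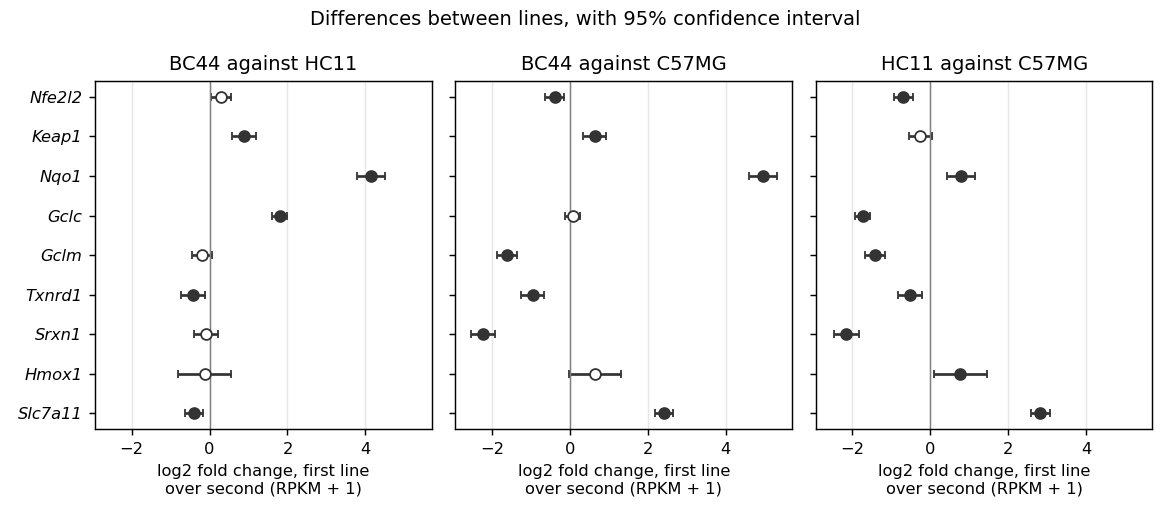
Log2 fold change on the log2(RPKM + 1) scale of each gene in the 3 contrasts, with the first named line over the second. Bars are 95% confidence intervals from limma, filled points passed an adjusted p of 0.05 and open points did not. Nqo1 lies farthest to the right in both contrasts of BC44, at 4.15 and 4.94, and Srxn1 farthest to the left in both contrasts with C57MG, at -2.24 and -2.15.

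Nfe2l2 (ENSMUSG00000015839), which encodes NRF2, was at 28.2 and 34.9 RPKM in BC44 replicates 1 and 2, 25.9 and 24.8 in HC11, and at 41.6 and 41.5 in C57MG. C57MG was the highest line and no library of one line overlapped those of another. These levels exceeded those of 75.5% to 86.3% of the listed genes in the same library. HC11 was lower than C57MG, with a log2 fold change of -0.69 (SE 0.11, limma adjusted p 0.000750). BC44 was also lower than C57MG, at -0.39 (SE 0.11, limma adjusted p 0.0118), a difference that did not pass without BC44 replicate 1 (-0.25, adjusted p 0.0538), without C57MG replicate 1 (-0.39, 0.0562) or without C57MG replicate 2 (-0.40, 0.0557). BC44 against HC11 was at 0.30 (95% interval 0.05 to 0.55) with a limma adjusted p of 0.0534, and passed in 3 of 15 alternatives, among them the fit without BC44 replicate 1 (0.45, 0.0140). Without BC44 replicate 2 it was 0.15 (limma adjusted p 0.243).

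Keap1 (ENSMUSG00000003308), the inhibitor of NRF2, followed another order. It was at 24.9 and 27.1 RPKM in BC44, 15.4 and 11.9 in HC11, and at 17.1 and 15.7 in C57MG, so that both BC44 libraries lay above all others. BC44 was higher than HC11 by 0.89 (SE 0.13, limma adjusted p 0.00111) and higher than C57MG by 0.64 (SE 0.13, adjusted p 0.00282). HC11 against C57MG was at -0.25 (95% interval -0.55 to 0.05, limma adjusted p 0.111), and passed in 1 of 15 alternatives, without HC11 replicate 1 (-0.43, 0.0151). Without HC11 replicate 2 it was -0.08 (limma adjusted p 0.534). An annotated antisense gene, Gm16754, shares exon bases with Keap1, and whether the authors counted by strand is not given in the sources used here. By mean RPKM BC44, the line with the most Keap1 mRNA, was highest for Nqo1 and Gclc and lowest for Gclm, Txnrd1 and Srxn1. Hmox1 and Slc7a11 were highest in HC11. Not all of these differences passed, and a relation to Keap1 was not tested.

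Nqo1 (ENSMUSG00000003849) encodes an NAD(P)H quinone reductase and is the classic reporter gene of NRF2 activity. It was at 47.8 and 54.5 RPKM in BC44, 1.94 and 1.93 in HC11, and at 0.962 and 0.459 in C57MG. The BC44 libraries stood far above the other 4, and HC11 stood above C57MG without overlap. In BC44 the gene exceeded 88.1% and 89.3% of listed genes, and in C57MG 14.7% and 11.1%. Estimated reads behind these values were 1077 and 1471 for BC44, 56 and 43 for HC11, and 27 and 11 for C57MG. Mean RPKM was 51.1 ± 4.73 in BC44, 1.94 ± 0.00707 in HC11 and 0.711 ± 0.356 in C57MG (SD, n = 2 each), a ratio of 26.4 for BC44 over HC11 and of 72.0 for BC44 over C57MG. The last ratio rests on the low C57MG values and was 111 without C57MG replicate 1 and 53.1 without C57MG replicate 2.
BC44 exceeded HC11 by a log2 fold change of 4.15 (SE 0.15, limma adjusted p 2.108e-06) and C57MG by 4.94 (SE 0.15, adjusted p 2.856e-07). By size these rank within the top 0.595% and 1.28% of all genes in the 2 contrasts. HC11 was higher than C57MG by 0.80 (SE 0.15, limma adjusted p 0.00243), which became 1.40 with a pseudocount of 0.1. The BC44-like signal in C57MG replicate 1 corresponds to 0.373 of its 0.962 RPKM of Nqo1. Without that library BC44 was higher by 5.16 and HC11 by 1.01, and both passed (limma adjusted p 3.675e-06 and 0.00169). In HC11 the 18 genes private to BC44 stood at medians of 2.38% and 1.21% of their BC44 level, which for Nqo1 would be 1.22 and 0.621 RPKM, but 1 of the 18 was at 0 in each library and only 66.7% and 44.4% lay within 2-fold of the median. The part of such a signal in the HC11 level of Nqo1 was not tested.

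Gclc and Gclm encode the catalytic and the modifier subunit of glutamate-cysteine ligase, the rate-limiting enzyme of glutathione synthesis, and the lines expressed them in different proportions. Gclc (ENSMUSG00000032350) was at 61.3 and 67.6 RPKM in BC44, 17.3 and 18.3 in HC11, and at 59.5 and 63.3 in C57MG. HC11 was low, and BC44 and C57MG overlapped. BC44 exceeded HC11 by 1.80 (SE 0.08, limma adjusted p 4.999e-06) and HC11 against C57MG was at -1.73 (SE 0.08, adjusted p 1.656e-06). BC44 against C57MG was at 0.07 (95% interval -0.13 to 0.26, limma adjusted p 0.494).

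Gclm (ENSMUSG00000028124) was at 10.3 and 12.7 RPKM in BC44, 13.0 and 13.6 in HC11, and at 38.8 and 35.9 in C57MG. C57MG was the high line, and the BC44 and HC11 libraries lay close together without overlap. C57MG was above BC44 (BC44 against C57MG -1.62, SE 0.11, limma adjusted p 8.034e-06) and above HC11 (HC11 against C57MG -1.42, SE 0.11, adjusted p 1.894e-05). BC44 against HC11 was at -0.20 (95% interval -0.46 to 0.06, limma adjusted p 0.180). The share of C57MG-like signal in BC44 replicate 2 corresponds to 0.753 of its 12.7 RPKM. Gclm shares exon bases with an annotated gene on the opposite strand and with a pseudogene on its own strand, neither of them listed, so some reads may have been assigned differently.

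The ratio of Gclc to Gclm, both in RPKM and therefore per length, stood at 5.95 and 5.33 in BC44, 1.33 and 1.35 in HC11, and at 1.54 and 1.76 in C57MG. The BC44 ratio was the highest in both libraries, as BC44 combined a Gclc level like that of C57MG with a Gclm level near that of HC11. The HC11 and C57MG ratios lay closer together, without overlap, and both subunits were lower in HC11. The ratios between members are given as a description and were not tested.

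**Figure D3:**
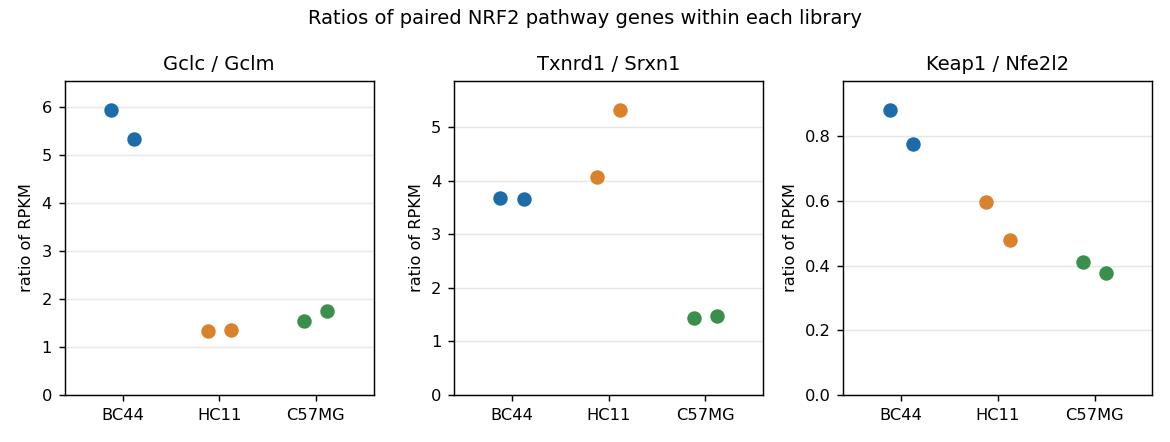
Ratio of RPKM within each library for Gclc over Gclm, Txnrd1 over Srxn1 and Keap1 over Nfe2l2, on linear axes that start at 0. Points are single libraries, replicate 1 to the left. Gclc over Gclm stands at 5.33 and 5.95 in BC44 and at or below 1.76 elsewhere, and Txnrd1 over Srxn1 at 1.43 and 1.48 in C57MG.

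Slc7a11 (ENSMUSG00000027737) encodes the light chain xCT of the cystine-glutamate exchanger, which brings in the cystine used for glutathione. It was at 5.40 and 5.74 RPKM in BC44, 7.70 and 7.66 in HC11, and at 0.266 and 0.190 in C57MG. Both C57MG libraries were far below the rest, with an estimated 67 and 40 reads against 1091 to 1975. By mean RPKM BC44 stood 24.4-fold and HC11 33.7-fold above C57MG. BC44 against C57MG was at 2.42 (SE 0.10, limma adjusted p 6.363e-07) and HC11 against C57MG at 2.82 (SE 0.10, adjusted p 4.365e-07), and a pseudocount of 0.1 gave 4.12 and 4.58. The BC44-like signal in C57MG replicate 1 corresponds to 0.0406 of its 0.266 RPKM. BC44 was lower than HC11, at -0.40 (SE 0.10, limma adjusted p 0.0133), which did not pass with a pseudocount of 0.1 (-0.46, adjusted p 0.0663) or without BC44 replicate 1 (-0.37, 0.0675). C57MG thus had the most Gclm and the least Slc7a11 of the 3 lines. Slc3a2, the heavy chain that holds xCT at the membrane, was also lowest there, at 63.7 and 65.1 RPKM against 137 and 157 in BC44 and 104 and 113 in HC11. It was chosen after its values were seen, and passed in both contrasts with C57MG (1.17 and 0.74, limma adjusted p 1.475e-05 and 0.000205).

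Txnrd1 (ENSMUSG00000020250), the cytosolic thioredoxin reductase, was the most abundant of the 9 genes in every line mean. It was at 58.1 and 75.7 RPKM in BC44, 84.3 and 95.1 in HC11, and at 126 and 133 in C57MG, and the 3 lines did not overlap. C57MG was above BC44 (-0.95 for BC44 against C57MG, SE 0.13, limma adjusted p 0.000330) and above HC11 (-0.53, SE 0.13, adjusted p 0.00757). The second difference did not pass without HC11 replicate 1 (-0.44, limma adjusted p 0.0554). BC44 was lower than HC11, at -0.43 (SE 0.13, limma adjusted p 0.0284). That difference did not pass without BC44 replicate 1 (-0.24, adjusted p 0.136), without HC11 replicate 2 (-0.34, 0.147) or in a fit of only these 4 libraries (-0.43, 0.0508).

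Srxn1 (ENSMUSG00000032802) encodes sulfiredoxin, which repairs over-oxidised peroxiredoxins. It was at 15.8 and 20.7 RPKM in BC44, 20.7 and 17.8 in HC11, and at 88.3 and 89.5 in C57MG. C57MG stood 4.87-fold above the BC44 mean and 4.61-fold above the HC11 mean, while BC44 and HC11 overlapped. BC44 against C57MG was at -2.24 (SE 0.13, limma adjusted p 3.842e-06) and HC11 against C57MG at -2.15 (SE 0.13, adjusted p 5.348e-06). BC44 against HC11 was at -0.08 (95% interval -0.39 to 0.23, limma adjusted p 0.637). The C57MG-like signal in BC44 replicate 2 corresponds to 1.79 of its 20.7 RPKM. Txnrd1 exceeded Srxn1 by a ratio of 3.67 and 3.66 in BC44 and 4.07 and 5.33 in HC11, but only 1.43 and 1.48 in C57MG. Keap1 over Nfe2l2, the remaining ratio drawn, stood at 0.882 and 0.776 in BC44, 0.597 and 0.480 in HC11, and at 0.410 and 0.378 in C57MG.

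Hmox1 (ENSMUSG00000005413) encodes the inducible haem oxygenase, which opens haem to biliverdin and releases iron. It was at 37.9 and 50.2 RPKM in BC44, 35.7 and 63.7 in HC11, and at 33.6 and 22.6 in C57MG. Its replicates differed more than those of the other members outside the low values, by 1.79-fold in HC11 and 1.49-fold in C57MG, and BC44 lay within the range of HC11. HC11 was higher than C57MG by 0.77 (SE 0.29, limma adjusted p 0.0442), but this passed in only 5 of 15 alternatives, with adjusted p from 0.0113 to 0.278. Without HC11 replicate 1 it was 1.18 (limma adjusted p 0.0113), without HC11 replicate 2 it was 0.36 (0.278) and without C57MG replicate 2 it was 0.49 (0.238). BC44 against C57MG was at 0.65 (95% interval -0.03 to 1.32, limma adjusted p 0.0781), passing in 4 of 15 alternatives (adjusted p 0.0394 to 0.369), and BC44 against HC11 at -0.13 (-0.80 to 0.55, 0.749). The direction of the last turned when BC44 replicate 1 or HC11 replicate 2 was left out. Fth1, the ferritin heavy chain that stores iron, also stood higher in HC11 replicate 2 (11871 RPKM) than in replicate 1 (6527). Of the other haem and iron genes read below, Ftl1 was also higher in HC11 replicate 2. Blvra, Blvrb, Fech, Hmox2, Slc48a1 and Slc40a1 were lower there, so the list did not shift together.

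The order of the 9 genes by mean RPKM differed from line to line below Txnrd1. In BC44 Gclc and Nqo1 followed at 64.4 and 51.1 RPKM, in HC11 Hmox1 and Nfe2l2 at 49.7 and 25.3, and in C57MG Srxn1 and Gclc at 88.9 and 61.4. The lowest gene was Slc7a11 in BC44 (5.57 RPKM) and C57MG (0.228 RPKM) and Nqo1 in HC11 (1.94 RPKM). Such an order between genes depends on the gene lengths used, and those of the authors are not given. By M21 exon lengths Slc7a11 has 13922 bases and Nqo1 1553, with an estimated 1091 and 1077 reads in BC44 replicate 1. Of the 5 targets with a passing difference of at least 2-fold on the tested scale, Gclm and Srxn1 both had C57MG as the single high line, while Nqo1, Gclc and Slc7a11 each had a pattern of its own. The 3 genes outside the pathway whose centred line means lay nearest to those of Nqo1 were Pi15, Mmp15 and Galnt18, at Euclidean distances of 0.15, 0.18 and 0.29 on the log2(RPKM + 1) scale over 3 lines and 6 libraries. Pi15 was at 40.7 and 38.5 RPKM in BC44, 1.16 and 1.40 in HC11, and at 0.328 and 0.009 in C57MG.

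The 77 other genes of the pathway's surroundings were grouped in 8 lists. Each list's counts are read against all genes. Between BC44 and HC11 24.7% of all genes passed as higher in BC44 and 23% as higher in HC11. Between BC44 and C57MG the shares were 37.5% and 34.1%, and between HC11 and C57MG 37.4% and 33.2%, with the first named line first. In this order of contrasts the medians over all genes were 0.02, 0.04 and 0.03.
Of the 10 genes that control or partner NRF2, 1 was higher in BC44 and 4 in HC11 in BC44 against HC11, 2 were higher in BC44 and 4 in C57MG in BC44 against C57MG, and 4 were higher in HC11 and 3 in C57MG in HC11 against C57MG. The 5, 6 and 7 of 10 that passed are near the 47.7%, 71.7% and 70.5% of all genes, and the list medians were -0.25, -0.09 and 0.08. Sqstm1, whose protein p62 draws KEAP1 into autophagy, was at 284 and 287 RPKM in C57MG, 69.0 and 71.6 in BC44, and 76.5 and 124 in HC11 (-2.01 and -1.54 for BC44 and HC11 against C57MG, limma adjusted p 5.404e-05 and 0.000257). Mafk, a small MAF partner, was lowest in C57MG at 6.82 and 5.27 RPKM, against 22.1 and 24.9 in BC44 and 19.5 and 21.7 in HC11 (1.81 and 1.62, limma adjusted p 1.054e-05 and 2.182e-05). Maff, another small MAF, was at 11.9 and 14.8 RPKM in HC11 and between 2.16 and 4.44 RPKM in the other lines (-1.80 for BC44 against HC11, limma adjusted p 0.00112).

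Of 13 glutathione genes 11 were listed and 10 tested. In BC44 against HC11 4 were higher in BC44 and 3 in HC11, in BC44 against C57MG 5 in BC44 and 3 in C57MG, and in HC11 against C57MG 6 in HC11 and 3 in C57MG, with medians of 0.19, 0.50 and 0.74. In all 7, 8 and 9 of the 10 passed, where 47.7%, 71.7% and 70.5% of all genes did. Gpx2, an epithelial glutathione peroxidase, followed Nqo1 in being highest in BC44, at 342 and 344 RPKM against 70.0 and 46.5 in HC11 (2.57, limma adjusted p 0.00537). It was at 2.65 and 0 RPKM in C57MG, and the BC44-like signal in replicate 1 corresponds to 2.50 of the 2.65 RPKM. Glrx, glutaredoxin, was instead lowest in BC44, at 4.02 and 4.26 RPKM in BC44, 76.6 and 106 in HC11, and at 44.9 and 43.4 in C57MG (-4.15 for BC44 against HC11, limma adjusted p 1.721e-06). Ggct, which cleaves gamma-glutamyl peptides, was highest in HC11 but uneven there, at 2.99 and 7.72 RPKM.

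Of the 11 thioredoxin and peroxiredoxin genes 2 were higher in BC44 and 4 in HC11, 3 in BC44 and 6 in C57MG, and 3 in HC11 and 3 in C57MG, in the same order of contrasts, with medians of -0.25, -0.31 and 0.12. The 6, 9 and 6 of 11 that passed stand beside 47.7%, 71.7% and 70.5% of all genes. Txnrd2, the mitochondrial reductase, had the line order of Txnrd1 at much lower levels, with 1.87 and 1.48 RPKM in BC44, 3.75 and 2.89 in HC11, and at 6.43 and 6.76 in C57MG. Prdx2 and Prdx3, peroxiredoxins of cytosol and mitochondria, had the opposite order, with 149 and 128 against 60.4 and 62.3 RPKM for Prdx2 in BC44 and C57MG, and 95.9 and 96.1 against 41.3 and 44.4 for Prdx3 (1.16 and 1.15, limma adjusted p 2.78e-05 and 7.381e-06).

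The 7 genes that supply NADPH, on which NQO1 and the reductases draw, were read next. In HC11 against C57MG 6 were higher in C57MG, where 33.2% of all genes were, and 1 in HC11 (median -0.91). In BC44 against C57MG 5 were higher in C57MG, beside 34.1% of all genes, and 1 in BC44 (median -0.34). G6pdx, which opens the pentose phosphate pathway and was chosen after its values were seen, was the gene that did not pass there (-0.23, limma adjusted p 0.0655). In BC44 against HC11 3 were higher in BC44 and 1 in HC11 (median 0.25), and the 4 of 7 that passed compare with 47.7% of all genes. Pgd, a pentose phosphate enzyme, was at 96.3 and 97.6 RPKM in C57MG, 58.3 and 63.3 in BC44, and 40.2 and 39.3 in HC11. Idh1, the cytosolic isocitrate dehydrogenase, was at 91.8 and 101 RPKM in C57MG against 13.5 and 15.5 in BC44 and 25.05 and 19.3 in HC11 (-2.65 and -2.08, limma adjusted p 1.705e-06 and 6.772e-06). Pgls was lowest in C57MG, at 10.7 and 10.8 RPKM in C57MG and 20.99 to 32.3 RPKM in the other libraries.

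Of the 8 haem and iron genes 5 were higher in BC44 and 1 in HC11, 2 in BC44 and 5 in C57MG, and 0 in HC11 and 6 in C57MG, with medians of 0.60, -0.63 and -0.59. In all 6, 7 and 6 of the 8 passed, beside 47.7%, 71.7% and 70.5% of all genes, and the 5 higher in BC44 than HC11 and the 6 higher in C57MG than HC11 compare with 24.7% and 33.2%. Beside the 0 genes that passed as higher in HC11 than C57MG in limma, 0 had an unadjusted p under 0.05. Slc48a1, a haem transporter, was at 182 and 158 RPKM in C57MG, 31.0 and 34.3 in BC44, and 19.96 and 19.2 in HC11. Blvrb, a biliverdin reductase, was at 34.9 and 30.0 RPKM in C57MG against 8.32 and 6.61 in BC44 and 6.21 and 4.05 in HC11. Fth1 itself was low in BC44, at 921 and 1181 RPKM, against 6975 and 6289 in C57MG (-2.67, limma adjusted p 5.925e-05). Hmox2, the constitutive paralog of Hmox1 and chosen after its values were seen, was highest in BC44 at 42.6 and 39.2 RPKM.

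Of the 15 detoxification and export genes 14 passed between BC44 and HC11, 7 higher in each line, and 9 of them were at least 2-fold apart. Of all genes 47.7% passed, 24.7% higher in BC44 and 23% in HC11, and 12.5% were also at least 2-fold apart. Against C57MG 3 were higher in BC44 and 11 in C57MG, and 2 in HC11 and 9 in C57MG, with medians of -0.12, -1.21 and -0.44 over the 3 contrasts. The 14 and 11 of 15 that passed against C57MG compare with 71.7% and 70.5% of all genes. Ephx1, microsomal epoxide hydrolase, was at 228 and 249 RPKM in C57MG, 46.1 and 45.2 in BC44, and 2.61 and 2.16 in HC11 (-6.15 for HC11 against C57MG, limma adjusted p 6.567e-08). Aldh3a1, an aldehyde dehydrogenase, had the same order, at 84.7 and 146 RPKM in C57MG, 26.4 and 41.8 in BC44, and 2.58 and 3.67 in HC11. Gstm1, a glutathione transferase with close gene copies whose reads may be split, was at 448 and 431 RPKM in C57MG and 3.97 and 8.84 in BC44, where the C57MG-like signal corresponds to 2.93 and 8.88 RPKM. Nqo2, the paralog of Nqo1 and chosen after its values were seen, had the reverse order of Nqo1, at 19.1 and 19.5 RPKM in C57MG, 4.28 and 4.90 in HC11, and 1.91 and 2.01 in BC44. For Nqo2 BC44 against C57MG was at -2.78 (limma adjusted p 4.225e-07), beside 4.94 for Nqo1.

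Of the 4 superoxide and peroxide genes 2 were higher in BC44 and 2 in HC11, 1 in BC44 and 1 in C57MG, and 2 in HC11 and 2 in C57MG, with medians of -0.10, 0.22 and 0.03. The 4, 2 and 4 of 4 that passed stand beside shares of 47.7%, 71.7% and 70.5% over all genes. Sod3, the secreted superoxide dismutase, was at 193 and 168 RPKM in C57MG, 47.0 and 44.4 in HC11, and 1.42 and 3.97 in BC44, where the C57MG-like signal corresponds to 1.20 and 3.64 RPKM. Cat, catalase, was highest in BC44 at 92.9 and 81.5 RPKM, against 42.2 and 33.0 in HC11 and 29.0 and 27.0 in C57MG (1.20 and 1.60, limma adjusted p 0.000242 and 1.737e-05). Sod2, the mitochondrial dismutase, was highest in HC11 at 38.5 and 50.8 RPKM.

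Slc7a11 is also a target of the stress factor ATF4, so 9 genes of that response were read beside it. Of these 2 were higher in BC44 and 4 in HC11, 4 in BC44 and 2 in C57MG, and 6 in HC11 and 0 in C57MG, with medians of -0.21, 0.28 and 0.62. In each contrast 6 of 9 passed, a share of 66.7%, which is near the 71.7% and 70.5% of all genes in both contrasts with C57MG and stands beside 47.7% in BC44 against HC11. Beside the 0 genes that passed as higher in C57MG than HC11 in limma, 0 had an unadjusted p under 0.05. Asns, asparagine synthetase, was lowest in C57MG, at 57.2 and 54.2 RPKM, against 175 and 149 in BC44 and 187 and 141 in HC11 (1.52 and 1.52, limma adjusted p 4.299e-05 and 4.873e-05). Vldlr, a lipoprotein receptor, was at 10.5 and 8.98 RPKM in BC44, 7.78 and 5.31 in HC11, and at 0.027 and 0 in C57MG. Trib3, a pseudokinase, was at 40.3 and 26.2 RPKM in HC11 and 9.98 to 11.8 RPKM in the other lines.

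**Figure D4:**
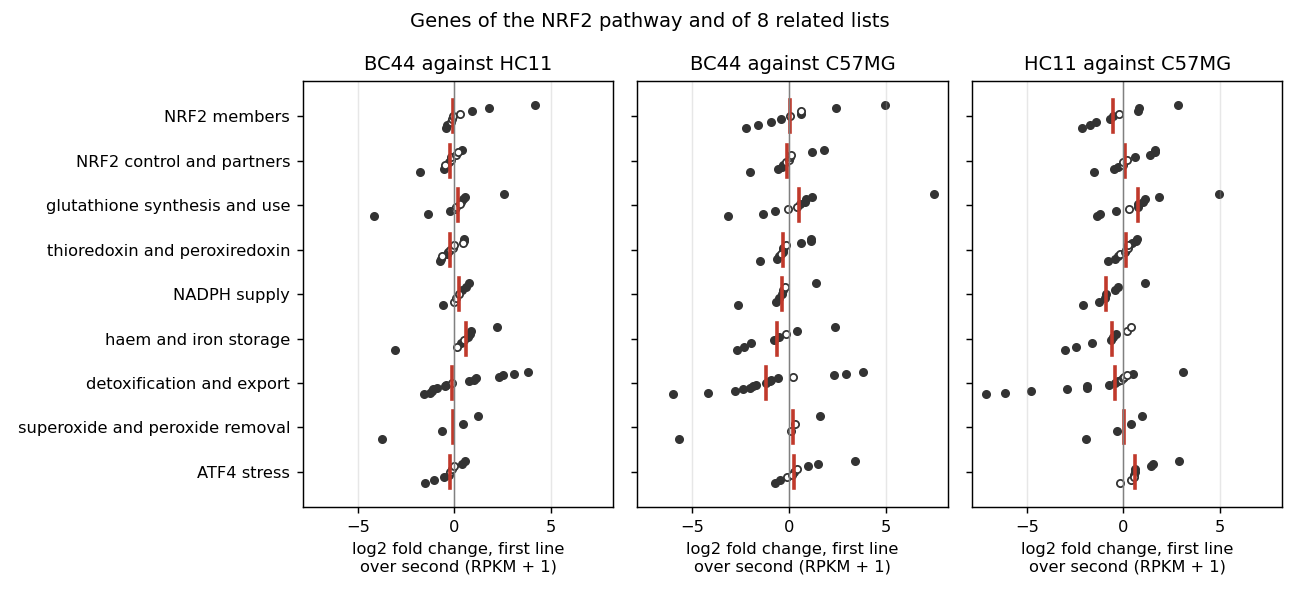
Log2 fold change on the log2(RPKM + 1) scale of every tested gene of the NRF2 members and the 8 lists, first named line over the second. Filled points passed a limma adjusted p of 0.05, open points did not, red bars are list medians, and height within a list carries no value. The NADPH list lies mostly left of 0 in HC11 against C57MG (median -0.91). The detoxification list also lies more to the left in that contrast (median -0.44) and is wider, from -7.11 for Gstm1 to 3.08 for Cbr1. Of its 15 genes 9 passed as higher in C57MG and 2 as higher in HC11, beside 33.2% and 37.4% of all genes.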

How the data were processed

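Per the labels' protocols, 1 µg of RNA went into each directional poly(A) library. The authors deposited 1 table of RPKM values per gene and library, a unit taken from the table's name. The submitters' processing notes name STAR and the build mm9. The counter, annotation, gene lengths and use of strand are not given in the sources used here. All 11417 identifiers and symbols matched GENCODE release M21.

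The filter asked for 1 RPKM or more in 2 or more libraries. Tests used limma 3.58.1 (R 4.3.3; a line-means model with trended eBayes) on log2(RPKM + 1), with all 6 libraries sharing 1 estimate of the spread and two-sided Benjamini-Hochberg adjusted p-values. RPKM are not counts, so no count model was used. The code was tested on simulated data.

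Depth was estimated from the step that makes RPKM times exon length a whole number of reads. Between 75.9% and 81.8% of 209 to 374 low values per library lay within 0.15 of a whole number. For a depth fixed in advance 30.0% would by chance. The depth was fitted to these same values, so that share is not the chance level of the fitted depth. Estimated reads assume M21 exon lengths and cover counting error only.

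Genes private to a line had a mean of at least 20 RPKM there, at most 2% of it in the third line and at most 5% in the other replicate.

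The members and lists were chosen with earlier results of these data known. Named by rule were all members, the 3 genes of each list with the largest range of line means, and the 3 genes nearest to Nqo1, which was also the member with the largest range. Slc3a2, G6pdx, Hmox2 and Nqo2 were added outside this rule, after their values were seen. Cbr1 was named as the end of a range in a figure, and the other haem and iron genes for their replicates. Python 3.11.15 was used for the rest. Alternatives changed the pseudocount to 0.1, dropped the filter or raised it to a mean of 5 RPKM, rescaled by quantiles or median ratios, fitted the 4 compared libraries alone, changed the variance model, added the replicate number, or left out single libraries.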

Additional observations from a re-analysis of the deposited data

How the results depend on the processing

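The 6 counts of passing genes and members stayed within 1.5 times of their value under all 15 alternatives. Leaving out 1 library gave 3762 to 4776, 6554 to 7944 and 6274 to 7404 passing genes for BC44 with HC11, BC44 with C57MG and HC11 with C57MG, and 4 to 5, 6 to 8 and 7 to 8 members. Of 27 differences of single members, 16 kept direction and side of the threshold under every alternative run, among them all 3 of Nqo1 and both of Gclm, Srxn1 and Slc7a11 against C57MG. Slc7a11 could not be fitted at a mean of at least 5 RPKM, which leaves it out. Directions turned, without passing, for Srxn1 in BC44 against HC11 without BC44 replicate 1 (0.10) or HC11 replicate 1 (0.019), for Hmox1 there without BC44 replicate 1 (0.072) or HC11 replicate 2 (0.284), and for Gclc in BC44 against C57MG without BC44 replicate 2 (-0.001). Over all single libraries left out these 3 differences ran from -0.267 to 0.10, -0.535 to 0.284 and -0.001 to 0.136, and the cause was not tested. The labels do not say that a replicate number marks a shared culture or day. Deviations of same-numbered libraries correlated across genes at 0.354 for BC44 and HC11, but at -0.039 for BC44 and C57MG and 0.038 for HC11 and C57MG. The main fit did not pair the libraries by number. These correlations do not settle whether the numbers pair BC44 with HC11. With the replicate block 5350, 7875 and 7721 genes and 6, 7 and 8 members passed, the added member being Nfe2l2 in BC44 against HC11 (0.30, limma adjusted p 0.0474). Txnrd1 in BC44 against HC11 stayed at -0.43 with the block, with an SE of 0.094 (limma adjusted p 0.00670).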
